A study of Mus musculus with 23 samples.

Results

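The 10 genes described here are 8 genes of zinc-dependent histone deacetylases, Hdac1 to Hdac8, and Sin3a and Ogt, whose proteins bind TET1. They are defined by name, and all 10 were present among the 23723 distinct gene symbols counted. RNA was measured at E6.25, just after implantation, in the extra-embryonic tissue (ExE) and the epiblast (E, the source of the embryo proper) of mice that carried a gene trap in Tet1. The groups were ExE of ZZ (Tet1gt/gt, 3 libraries), Zwt (Tet1gt/wt, 4) and wt embryos (wild type, 4), and E of ZZ, Zwt and wt embryos (4 libraries each), 23 libraries in all. Each library came from pooled lysates of several embryos from more than 1 litter that were sorted by a genotype read afterwards, so that a library averages embryos and no value belongs to 1 embryo. The sources used here do not give the site of the trap within Tet1 or the sex of the embryos.

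Histone deacetylases remove acetyl groups from lysines. The class I enzymes Hdac1 and Hdac2 work inside the Sin3, NuRD and CoREST complexes, Hdac3 works inside the NCoR/SMRT complex, and Hdac8 acts without such a complex on the cohesin ring. The class IIa enzymes Hdac4, Hdac5 and Hdac7 have weak catalytic activity and move between nucleus and cytoplasm under the control of kinases, while Hdac6, of class IIb, is largely cytoplasmic and deacetylates tubulin. Sin3a is the scaffold of the Sin3 complex, and Ogt is the enzyme that puts N-acetylglucosamine on serines and threonines of nuclear and cytoplasmic proteins. TET1 is a dioxygenase that oxidises methylated cytosine, has a domain that binds CpG-rich DNA, and was found with SIN3A and with OGT in mouse embryonic stem cells.

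RefSeq promoters (250 bases before a start, GRCm38.p6) were matched for 8 of the 10 genes, with 13 promoters between them; Hdac1 and Hdac3 had none in the table. Shown are the stretches just upstream of Hdac6, Sin3a and Ogt, the genes on which the comparison of the tissues turned, cut back to bases outside the span of the gene in both GENCODE and RefSeq; the RefSeq spans begin further upstream than the GENCODE positions given for the genes below. They lie at chrX:7948048-7948139 (minus strand, 92 bases), chr9:57071790-57071990 (plus strand, 201 bases, where exon sequence of the non-coding gene Gm10658 also lies) and chrX:101639801-101640010 (plus strand, 210 bases), written 5′ to 3′ with each CpG, the dinucleotide that DNA methylation acts on, in capitals.
Hdac6: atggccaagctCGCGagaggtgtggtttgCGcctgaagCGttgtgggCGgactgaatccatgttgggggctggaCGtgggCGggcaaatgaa
Sin3a: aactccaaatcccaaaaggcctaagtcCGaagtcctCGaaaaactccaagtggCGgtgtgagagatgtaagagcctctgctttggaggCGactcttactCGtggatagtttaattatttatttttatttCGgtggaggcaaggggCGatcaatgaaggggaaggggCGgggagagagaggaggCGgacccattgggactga
Ogt: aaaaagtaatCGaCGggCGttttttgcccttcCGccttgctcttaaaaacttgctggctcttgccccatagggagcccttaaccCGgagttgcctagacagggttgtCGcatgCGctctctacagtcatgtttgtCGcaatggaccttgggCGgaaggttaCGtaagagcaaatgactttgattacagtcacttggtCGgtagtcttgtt
The stretch at Hdac6 held 7 CpG (7.6 per 100 bases), that at Sin3a 9 (4.5) and that at Ogt 11 (5.2). Over the full 250 bases these promoters held 17 CpG for Hdac6, 12 for Sin3a and 15 for Ogt, and a further RefSeq promoter held 19 for Sin3a and 13 for Ogt, against a median of 6 (quartiles 2 and 16) over all 32851 promoters of the table. At least 17 CpG were held by 23.5% of all promoters, at least 12 by 33.5%, at least 15 by 27.3%, at least 19 by 19.7% and at least 13 by 31.5%. The member promoter with the most CpG was that of Hdac2, with 27, a number that 8.56% of promoters reached, and Hdac8 had 6. DNA methylation and TET1 binding were not measured in these files, so the sequences describe the genes and no more.

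Hdac6, Ogt and Hdac8 lie on the X chromosome and the other members on autosomes. On GRCm38, Hdac6 spans chrX:7930120-7947889 on the minus strand, Ogt chrX:101640060-101684351 on the plus strand, Hdac8 chrX:102284639-102505359 on the minus strand and Sin3a chr9:57072040-57128366 on the plus strand. Hdac1 spans chr4:129516104-129542713 on the minus strand and Hdac2 chr10:36974544-37001889 on the plus strand. Hdac3 (chr18:37935844-37955016), Hdac4 (chr1:91928779-92195699), Hdac5 (chr11:102194432-102230166) and Hdac7 (chr15:97792664-97844502) are on the minus strand.

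Total counts per library were 4912215 to 7774149 in ExE ZZ, 6810141 to 9494814 in ExE Zwt, 7336244 to 9014864 in ExE wt, 5810296 to 9427522 in E ZZ, 5764399 to 9452811 in E Zwt and 6899786 to 9021097 in E wt. In every library each of the 10 genes had at least 11 counts, the lowest being for Hdac7. In 3 libraries, ExE ZZ pool 3, E ZZ pool 3 and E Zwt pool 4, longer transcripts had lower values and GC-rich ones higher values: a gene's deviation from its tissue mean changed by -0.28 to -0.22 log2 units per doubling of length, against -0.06 to 0.13 in the other 20 libraries. The labelled tissues were checked with markers. The summed level of 8 epiblast markers was 562 to 1984 CPM (counts scaled to library size with TMM factors) over the ExE libraries and 3434 to 4960 CPM over the E libraries, of which Utf1, at 373 to 933 CPM in ExE and 512 to 1174 CPM in E, overlapped between the tissues. The other 7 epiblast markers summed to 88.3 to 1246 CPM in ExE and 2914 to 4242 CPM in E, while 11 extra-embryonic markers summed to 1580 to 2897 CPM in ExE and 110 to 599 CPM in E. No epiblast marker was at 0 in all libraries of an ExE group, and among the extra-embryonic markers Tpbpa, of later trophoblast, was at 0 in every ExE library. Tet1 was at 27.8 ± 8.74 CPM in ExE ZZ (SD, n = 3) and 95.996 ± 13.7 CPM in ExE wt (SD, n = 4), and at 81.1 ± 24.8 CPM in E ZZ and 173 ± 31.7 CPM in E wt (SD, n = 4 each). Both differences had a two-sided exact permutation p of 0.0286, the smallest that these numbers of libraries allow.

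In both tissues the class I enzymes Hdac1 and Hdac2 were among the most abundant members and the class IIa enzymes among the scarcest. Levels between genes were compared as CPM per kb of exon. In ExE wt, Hdac1 was at 54.4 ± 6.11, Hdac6 at 43.9 ± 7.35, Hdac2 at 43.1 ± 8.56, Ogt at 43.0 ± 10.0, Hdac3 at 30.2 ± 2.57 and Sin3a at 19.3 ± 4.27 CPM per kb (SD, n = 4). In E wt the order was Hdac2 at 74.1 ± 11.2, Hdac1 at 66.9 ± 7.60, Sin3a at 41.4 ± 5.58, Hdac3 at 31.6 ± 4.72, Ogt at 24.7 ± 3.75 and Hdac6 at 18.5 ± 1.83 CPM per kb (SD, n = 4). Sin3a thus ranked after Hdac3 in ExE and before it in E, and Hdac6 ranked next to Hdac1 in ExE and after Ogt in E. The 4 scarcest genes were Hdac5, at 5.72 ± 1.75 CPM per kb in ExE wt and 5.97 ± 1.47 in E wt, Hdac4 at 1.65 ± 0.510 and 2.04 ± 0.736, Hdac8 at 1.40 ± 0.673 and 2.53 ± 0.889, and Hdac7 at 1.09 ± 0.477 and 1.42 ± 0.464 (SD, n = 4 each).

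Many neighbours in this order could not be separated. In ExE wt the pools of Hdac1, Hdac6, Hdac2 and Ogt overlapped from one neighbour to the next, as did those of Ogt and Hdac3, whereas every pool lay lower for Sin3a than for Hdac3, lower for Hdac5 than for Sin3a and lower for Hdac4 than for Hdac5. In E wt Hdac2 overlapped Hdac1, and the run of Sin3a, Hdac3, Ogt and Hdac6 overlapped from each to the next. There the gaps without overlap lay between Hdac1 and Sin3a, between Hdac6 and Hdac5 and between Hdac5 and Hdac8. The order also depended on the length used: with the longest transcript in place of all exons, Hdac1 came before Hdac2 in E wt (113 and 102 CPM per kb), Ogt came before Hdac3 there (37.0 and 35.8), and Ogt and Hdac2 came before Hdac6 in ExE wt (64.3, 59.4 and 50.7). Reads of Hdac1 can be divided with near-identical pseudogenes, since 28.03% of its 75-base stretches also occur in the processed pseudogene Gm10093. Hdac4 shares 22.4% of its exon sequence with the antisense transcript Gm26720, and the sources used here do not say how strand was treated in counting.

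**Figure D1:**
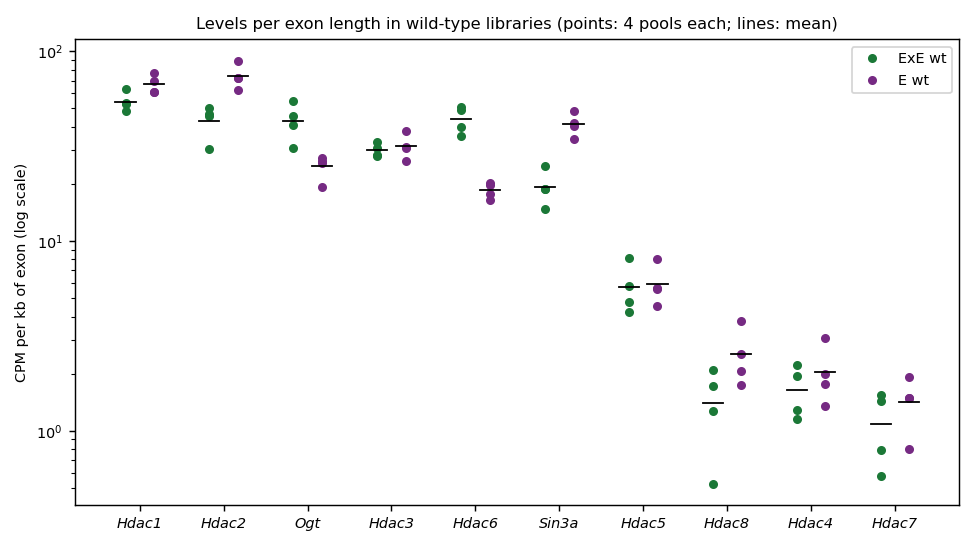
Levels of the 10 genes in wild-type libraries, as TMM-scaled CPM per kb of exon on a log scale. Points are the 4 ExE wt pools (green) and the 4 E wt pools (purple), and lines are means; Hdac6 and Ogt lie higher in ExE than in E, Sin3a and Hdac2 lie lower, and the class IIa genes and Hdac8 lie far under the others in both tissues.

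The comparison of the tissues asks which members differ between ExE and E, and it was made separately in each genotype. Hdac6 was higher and Sin3a lower in ExE than in E in all 3 genotypes. Ogt was higher in ExE by the test in Zwt and Hdac2 lower in wt, while the remaining 6 members passed the threshold in none. Counted by edgeR adjusted p below 0.05, 2 of 10 members passed in ZZ, 3 in Zwt and 3 in wt, against 16.8% of all genes tested in ZZ (9.12% higher, 7.66% lower), 27.0% in Zwt (1633 of 13595 genes higher, 14.9% lower) and 17.3% in wt (9.28% higher, 7.98% lower). A share of 2 or 3 in 10 is near these backgrounds and is no result about the members as a set. In all 3 genotypes together, 2 members passed, against 10.5% of all 13595 genes tested, 5.72% higher and 4.77% lower. Since whole tissues were lysed, fewer cells of a type and less RNA per cell cannot be told apart here or in any comparison that follows.

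Among the class I enzymes, Hdac2 was the one that passed the tissue test, in wt. There it measured 203, 208, 137 and 224 CPM in ExE pools 1, 2, 4 and 5, against 323, 325, 279 and 400 CPM in E pools 1, 2, 4 and 5. All ExE wt pools were lower than all E wt pools, and the log2 fold change was -0.78 ± 0.25 (SE, edgeR adjusted p = 0.0314). In Zwt the ExE pools 1, 2, 3 and 5 had 208, 228, 186 and 201 CPM of Hdac2 and the E pools 2, 3, 4 and 5 had 318, 321, 164 and 302 CPM. In ZZ the ExE pools 1, 3 and 4 had 209, 137 and 263 CPM and the E pools 1, 2, 3 and 4 had 342, 315, 157 and 342 CPM. The lowest E library of ZZ, under 2 of the 3 ExE ZZ pools, and the lowest E library of Zwt, under all 4 ExE Zwt pools, were both among the 3 with steep length slopes. The log2 fold changes were -0.51 ± 0.27 in ZZ (edgeR adjusted p = 0.201) and -0.42 ± 0.25 in Zwt (0.217). Without the 3 steep libraries Hdac2 was at -0.51 ± 0.17 in ZZ (edgeR adjusted p = 0.0416), -0.62 ± 0.14 in Zwt (0.00187) and -0.79 ± 0.13 in wt (0.000173), and the part of length and GC bias in the difference was not tested further. The call in wt was lost without E wt pool 2 or 5 or ExE wt pool 2 or 4, with edgeR adjusted p of 0.0362 to 0.105 over the 8 leave-outs. It was also lost after adjustment for Y-linked genes (-0.48 ± 0.31, edgeR adjusted p = 0.358) and after adjustment for visceral endoderm markers (0.0584). The mean level of Y-linked genes did not overlap between ExE wt (-0.14 to 3.75 log2 CPM) and E wt (4.87 to 5.20). In wt the adjustment for Y-linked genes thus cannot be told apart from the tissue.

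Hdac1, which pairs with Hdac2 in the same complexes, had log2 fold changes of -0.39 ± 0.14 in ZZ (edgeR adjusted p = 0.0570), -0.31 ± 0.13 in Zwt (0.0760) and -0.30 ± 0.13 in wt (0.115). Its level was 161 ± 16.9 CPM in ExE ZZ (SD, n = 3) and 211 ± 14.03 CPM in E ZZ (SD, n = 4), 182 ± 18.0 CPM in ExE Zwt and 226 ± 9.31 CPM in E Zwt, and 187 ± 21.1 CPM in ExE wt and 230 ± 26.2 CPM in E wt (SD, n = 4 each). The pools of the tissues did not overlap in ZZ and Zwt and overlapped in wt, where ExE pool 1 had 217 CPM against 209 CPM in E pool 1. DESeq2 called Hdac1 in ZZ (adjusted p = 0.00646), Zwt (0.0158) and wt (0.0269). The level per kb of Hdac2 over that of Hdac1 was 0.802 ± 0.197 in ExE wt and 1.11 ± 0.0837 in E wt (SD, n = 4 each), with pools at 0.576 to 1.03 in ExE and 1.02 to 1.19 in E. These ranges met at their ends. In Zwt the ratio was 0.874 ± 0.0665 in ExE and 0.935 ± 0.231 in E (SD, n = 4 each). In ZZ it was 0.958 ± 0.206 in ExE (SD, n = 3) and 1.05 ± 0.317 in E (SD, n = 4). The pools of the tissues overlapped in both.

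Hdac3, the enzyme of the NCoR/SMRT complex, had the smallest tissue differences of the class, at -0.01 ± 0.16 in ZZ, -0.11 ± 0.15 in Zwt and -0.07 ± 0.15 in wt on the log2 scale (edgeR adjusted p of 0.645 to 0.986). Its level ran from 98.3 to 162 CPM over all 23 libraries. Hdac8 was low in every library, at 2.55 to 23.4 CPM. Its mean was 5.95 ± 3.21 CPM in ExE ZZ (SD, n = 3) and 10.8 ± 2.66 CPM in E ZZ (SD, n = 4), 6.98 ± 4.02 CPM in ExE Zwt and 14.2 ± 7.63 CPM in E Zwt, and 6.79 ± 3.26 CPM in ExE wt and 12.3 ± 4.30 CPM in E wt (SD, n = 4 each). The log2 fold changes of -0.88 ± 0.55, -1.03 ± 0.50 and -0.86 ± 0.50 had errors of 0.50 to 0.55, and none passed (edgeR adjusted p of 0.135 to 0.295). In Zwt it passed without the 3 steep libraries (-1.32 ± 0.47, edgeR adjusted p = 0.0324).

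**Figure D2:**
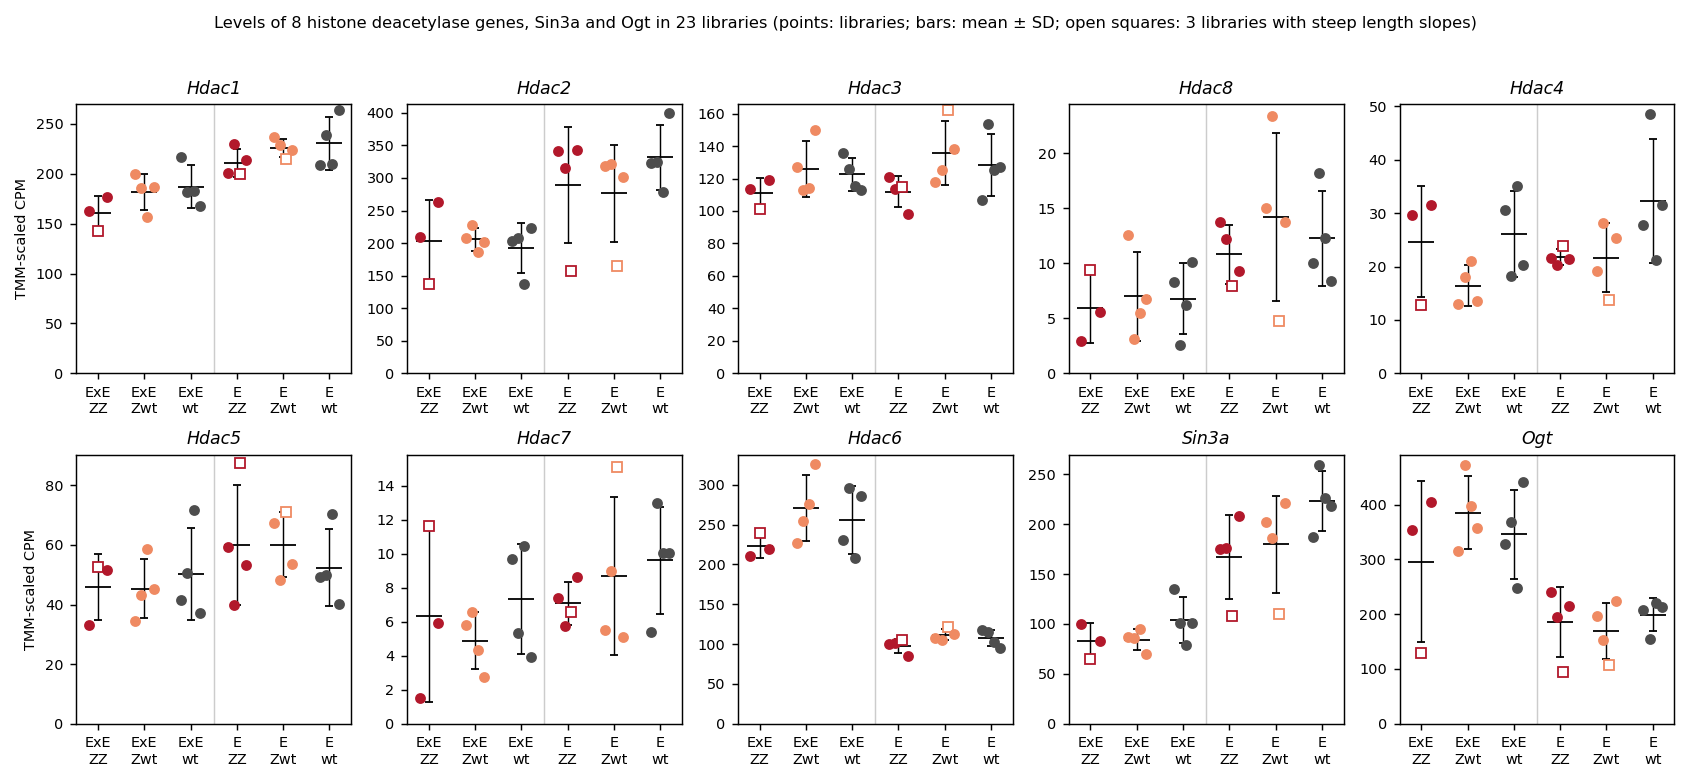
TMM-scaled CPM of each of the 10 genes in every library, by tissue and genotype. Points are libraries, bars are mean ± SD of 3 ExE ZZ or 4 other libraries per group, and open squares are the 3 libraries with steep length slopes; Hdac6 separates ExE from E in every genotype, and the open squares are the lowest points for Hdac2, Sin3a and Ogt in their groups.

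No class IIa gene passed the tissue test in any genotype. Hdac4, a repressor partner of MEF2 factors, was at 0.19 ± 0.34 in ZZ, -0.40 ± 0.32 in Zwt and -0.31 ± 0.31 in wt (log2 fold change, edgeR adjusted p of 0.385 to 0.754). Hdac5, its close relative, was at -0.39 ± 0.28 in ZZ, -0.41 ± 0.26 in Zwt and -0.06 ± 0.26 in wt (0.273 to 0.912). Hdac7 was the scarcest member, at 1.49 to 15.1 CPM, with log2 fold changes of -0.18 ± 0.55 in ZZ, -0.83 ± 0.51 in Zwt and -0.39 ± 0.50 in wt (0.248 to 0.870). The pools of ExE and E overlapped for all 3 genes in all 3 genotypes. These values do not show equal levels, since a missed threshold leaves differences of the size of the errors undetected.

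Hdac6, the class IIb enzyme, was the member with the clearest tissue difference. In ZZ it measured 211, 239 and 219 CPM in ExE pools 1, 3 and 4, against 99.6, 101, 105 and 84.9 CPM in E pools 1, 2, 3 and 4. In Zwt it measured 226, 255, 276 and 326 CPM in ExE pools 1, 2, 3 and 5, against 108, 105, 121 and 113 CPM in E pools 2, 3, 4 and 5. In wt it measured 231, 297, 208 and 286 CPM in ExE pools 1, 2, 4 and 5, against 118, 115, 102 and 95.1 CPM in E pools 1, 2, 4 and 5. Every ExE library was higher than every E library of any genotype, the lowest ExE level being 208 CPM and the highest E level 121 CPM. The log2 fold change was 1.19 ± 0.16 in ZZ (edgeR adjusted p = 6.66e-05), 1.28 ± 0.15 in Zwt (3.74e-06) and 1.25 ± 0.15 in wt (1.8e-05). The 3 steep libraries had the highest Hdac6 of their groups, and without them the log2 fold changes were 1.17 ± 0.16 in ZZ, 1.31 ± 0.14 in Zwt and 1.24 ± 0.13 in wt. Relative to Hdac1, its level per kb was 0.832 ± 0.138 in ExE ZZ (SD, n = 3) and 0.276 ± 0.0343 in E ZZ (SD, n = 4), 0.891 ± 0.180 in ExE Zwt and 0.294 ± 0.0299 in E Zwt, and 0.821 ± 0.197 in ExE wt and 0.280 ± 0.0495 in E wt (SD, n = 4 each).

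Sin3a, the scaffold on which Hdac1 and Hdac2 assemble, went the other way. In ZZ it measured 100.3, 64.5 and 83.2 CPM in ExE pools 1, 3 and 4, against 175, 176, 108 and 208 CPM in E pools 1, 2, 3 and 4. In Zwt it measured 87.1, 86.0, 94.8 and 69.8 CPM in ExE pools 1, 2, 3 and 5, against 202, 186, 110 and 221 CPM in E pools 2, 3, 4 and 5. In wt it measured 135, 101, 79.0 and 101 CPM in ExE pools 1, 2, 4 and 5, against 187, 260, 226 and 219 CPM in E pools 1, 2, 4 and 5. Within each genotype all ExE pools were lower than all E pools, and the 3 steep libraries were the lowest of their groups. The log2 fold change was -1.01 ± 0.25 in ZZ (edgeR adjusted p = 0.00785), -1.09 ± 0.22 in Zwt (0.000977) and -1.10 ± 0.22 in wt (0.00189). Without the 3 steep libraries it was -1.03 ± 0.19 in ZZ, -1.28 ± 0.15 in Zwt and -1.11 ± 0.15 in wt. The highest ExE level, 135 CPM, was that of ExE wt pool 1, which also had the highest mean level of epiblast markers among ExE libraries (7.07 log2 CPM, against 3.67 to 6.63 in the others), and the part of carried-over epiblast in it was not tested. In ZZ the call was lost when only the 7 ZZ libraries were fitted (edgeR adjusted p = 0.0628). Sin3a overlaps the antisense gene Man2c1os over 3.8% of its exon sequence.

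Ogt was higher in ExE, with a wider spread than Hdac6. In ZZ it measured 354, 129 and 405 CPM in ExE pools 1, 3 and 4, against 241, 194, 93.6 and 215 CPM in E pools 1, 2, 3 and 4. In Zwt it measured 315, 472, 399 and 357 CPM in ExE pools 1, 2, 3 and 5, against 197, 152, 107 and 223 CPM in E pools 2, 3, 4 and 5. In wt it measured 327, 368, 247 and 441 CPM in ExE pools 1, 2, 4 and 5, against 208, 154, 220 and 214 CPM in E pools 1, 2, 4 and 5. The tissues did not overlap in Zwt and wt, and in ZZ the single steep ExE library, at 129 CPM, fell among the E libraries. The log2 fold change was 0.67 ± 0.33 in ZZ (edgeR adjusted p = 0.168), 1.18 ± 0.31 in Zwt (0.00638) and 0.80 ± 0.31 in wt (0.0771). Without the 3 steep libraries Ogt passed in all 3 genotypes, at 0.80 ± 0.21 in ZZ (edgeR adjusted p = 0.00955), 1.01 ± 0.18 in Zwt (0.000196) and 0.79 ± 0.16 in wt (0.00129). Without that ExE ZZ library alone the value in ZZ was 1.04 (edgeR adjusted p = 0.0206). With GC and length offsets Ogt passed in ZZ, Zwt and wt (edgeR adjusted p of 0.00488, 1.08e-05 and 0.000365). With Y-linked genes as a covariate it passed in ZZ (0.88 ± 0.30, edgeR adjusted p = 0.0495), Zwt (1.49 ± 0.30, 0.000837) and wt (1.39 ± 0.36, 0.0142). Y-linked levels did not overlap between ExE wt and E wt, so there the covariate cannot be told apart from the tissue. The part of the sex mix of the pools was not tested otherwise.

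**Figure D3:**
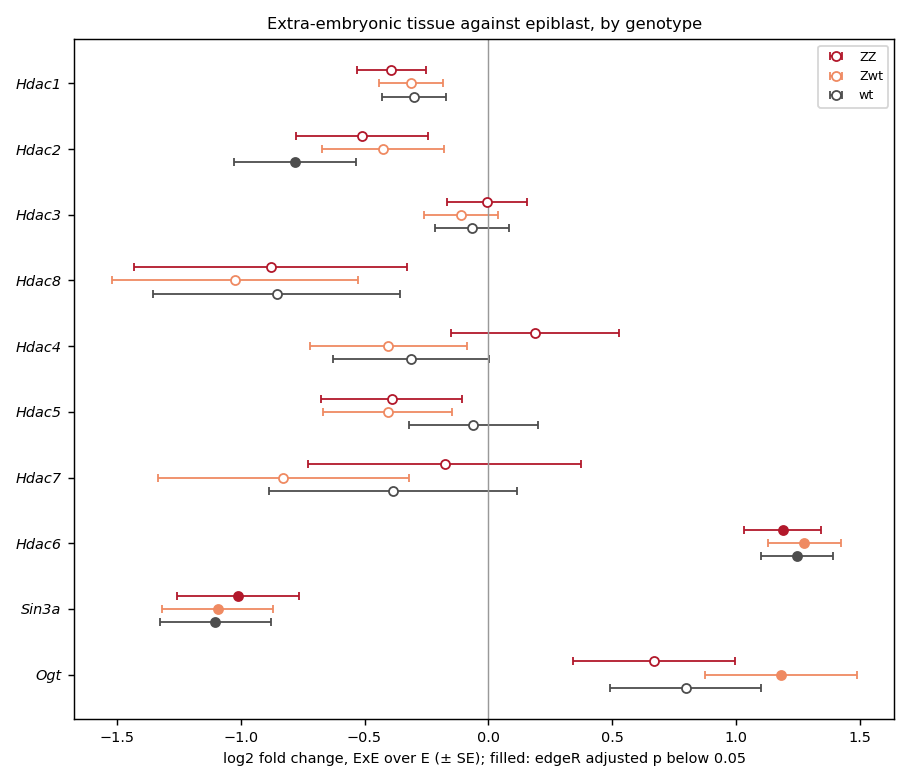
Log2 fold changes of ExE over E for the 10 genes in ZZ, Zwt and wt, with bars of ± SE and filled points where the edgeR adjusted p was below 0.05. Hdac6 lies at 1.19 to 1.28 and Sin3a at -1.10 to -1.01 in all 3 genotypes, Ogt is filled in Zwt alone and Hdac2 in wt alone, which does not show that those genotypes differ.

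Counting libraries that do not overlap, 3 of 10 members separated the tissues in ZZ, 4 in Zwt and 4 in wt, against 23.3% of all genes tested in ZZ (11.2% higher, 12.1% lower), 29.7% in Zwt (14.3% higher, 15.4% lower) and 28.0% in wt (14.3% higher, 13.8% lower). Per the labels, ExE and E pools of the same number came from the same litters for 3 of 4 pools. By number 10 pairs exist, 3 in ZZ, 3 in Zwt and 4 in wt, so that 1 wt pair, not named in the labels, has no stated shared litters. Hdac6 was higher in ExE in 10 of 10 pairs, by 0.97 to 1.59 log2 units (median 1.31), and Ogt in 10 of 10, by 0.17 to 1.39 (median 0.79). Sin3a was lower in ExE in 10 of 10 pairs, with differences of -1.66 to -0.47 (median -1.18), and Hdac2 in 10 of 10, with -1.02 to -0.19 (median -0.66). Going 1 way in all 10 pairs was found for 4 members and for 27.9% of all genes tested (14.4% higher, 13.5% lower). Hdac1 was lower in 9 of 10 pairs and Hdac8 in 8 of 10, while Hdac3, Hdac4, Hdac5 and Hdac7 were lower in 6 or 7. With the pool number as a replicate block, which rests on the matched pairs, Ogt and Hdac2 passed in every genotype. The edgeR adjusted p of Ogt was then 0.0278 in ZZ, 0.000715 in Zwt and 0.00359 in wt, and that of Hdac2 0.0244, 0.00188 and 0.000197. In Zwt the block also brought Hdac1 (0.0385) and Hdac8 (0.0400) past the threshold, so that 4 members passed in ZZ, 6 in Zwt and 4 in wt. The share of all genes called with the block was 20.9% in ZZ, 30.6% in Zwt and 25.8% in wt.

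The tissues also differed in how much Ogt stood beside Sin3a. Per kb of exon, Ogt over Sin3a was 2.32 ± 0.961 in ExE ZZ (SD, n = 3) and 0.733 ± 0.142 in E ZZ (SD, n = 4), 3.08 ± 0.569 in ExE Zwt and 0.631 ± 0.0571 in E Zwt, and 2.27 ± 0.549 in ExE wt and 0.612 ± 0.149 in E wt (SD, n = 4 each). The lowest ExE library had 1.34, the steep one of ZZ, and the highest E library 0.921, so the tissues did not overlap. With exon length common to both tissues, the ratio between tissues does not depend on the length used, though its size does.

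The subunits and partners around the members were taken from lists of the complexes, given as numbers of genes tested and called in wt ExE against E. Beside each list, 9.28% of all genes tested were higher and 7.98% lower in wt. In all 3 genotypes 5.72% were higher and 4.77% lower. Of 16 Sin3 complex genes other than the members, 2 were higher and 4 lower in wt ExE, with a median log2 fold change of -0.28 (all genes -0.01). The 3 of smallest p were Fam60a at -1.45 ± 0.29 (edgeR adjusted p = 0.0018), Sap30 at -1.10 ± 0.24 (0.00283) and Ing1, a reader of methylated histone, at -0.72 ± 0.17 (0.0058). Fam60a, a subunit of the Sin3 complex, was at 293 ± 113 CPM in ExE wt and 798 ± 74.3 CPM in E wt, and Sap30, which ties deacetylases to the scaffold, at 36.2 ± 12.6 and 77.6 ± 7.55 CPM (SD, n = 4 each). These 3 were lower in all 3 genotypes. Sin3b, the other mammalian Sin3 scaffold, named after its values were seen, was higher in ExE in all 3 genotypes, at 0.68 ± 0.20 in wt (edgeR adjusted p = 0.0208), with 152 ± 37.6 CPM in ExE wt and 94.5 ± 15.0 CPM in E wt (SD, n = 4 each).

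Of 9 NuRD genes, 1 was higher and 3 were lower in wt ExE (median log2 fold change 0.23), beside 9.28% and 7.98% of all genes tested. The MTA subunits, which hold Hdac1 and Hdac2 in NuRD, differed in direction. Mta3 was at 220 ± 34.6 CPM in ExE wt and 109 ± 9.25 CPM in E wt (log2 fold change 1.01 ± 0.15, edgeR adjusted p = 0.000139). Mta1 was at 57.9 ± 10.8 and 142 ± 25.9 CPM (-1.29 ± 0.19, 0.000102), and Mta2 at 283 ± 44.1 and 382 ± 14.5 CPM (-0.43 ± 0.13, 0.0204; SD, n = 4 each). All 3 were called the same way in ZZ and Zwt, with Mta1 at -2.04 ± 0.21 in ZZ and -2.09 ± 0.19 in Zwt.

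Of 9 CoREST genes, 2 were lower, Phf21a at -1.85 ± 0.44 (edgeR adjusted p = 0.00559) and the scaffold Rcor2 at -0.75 ± 0.20 (0.0143). The demethylase Kdm1a was at -0.50 ± 0.20 (0.0897). Of 5 NCoR/SMRT genes, the exchange factor Tbl1xr1 was lower, at -1.45 ± 0.37 (edgeR adjusted p = 0.00935), with 34.4 ± 13.7 CPM in ExE wt and 94.0 ± 22.8 CPM in E wt (SD, n = 4 each). None of the 3 tested genes of the mitotic deacetylase complex passed. Phf21a, Rcor2 and Tbl1xr1 were lower in all 3 genotypes.

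Of 10 other deacetylase genes, the tubulin and histone deacetylase Sirt2 was higher in ExE, at 37.5 ± 7.55 CPM in ExE wt and 17.4 ± 4.73 CPM in E wt (SD, n = 4 each; log2 fold change 1.10 ± 0.32, edgeR adjusted p = 0.0193), and it passed in ZZ and Zwt too. Of 8 genes of O-GlcNAc cycling and hexosamine synthesis, Gfpt2, an entry enzyme of the hexosamine pathway, was lower (-1.77 ± 0.51, edgeR adjusted p = 0.0186). No gene of that list, Gfpt2 included, was called the same way in all 3 genotypes. Mgea5, which encodes the enzyme that removes what Ogt adds, was at -0.59 ± 0.27 (0.153), with 206 ± 76.6 CPM in ExE wt and 309 ± 55.9 CPM in E wt (SD, n = 4 each). Of 10 acetyltransferase genes Kat6b alone passed, higher at 2.12 ± 0.45 (edgeR adjusted p = 0.00265), with 59.6 ± 15.1 CPM in ExE wt and 13.7 ± 1.49 CPM in E wt (SD, n = 4 each). Of 10 partners of class IIa enzymes, 2 were higher and 2 lower in ExE. They include the phosphoserine-binding adaptors Sfn at 3.24 ± 0.61 (edgeR adjusted p = 0.00106), Ywhaq at -0.69 ± 0.11 (0.000223) and Ywhae at -0.42 ± 0.09 (0.00391). Tet1 itself was lower in ExE wt, at -0.85 ± 0.25 (edgeR adjusted p = 0.0231), and Tet2 at 1.62 ± 0.77 (0.156) and Tet3 at -0.48 ± 0.27 (0.251) did not pass.

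**Figure D4:**
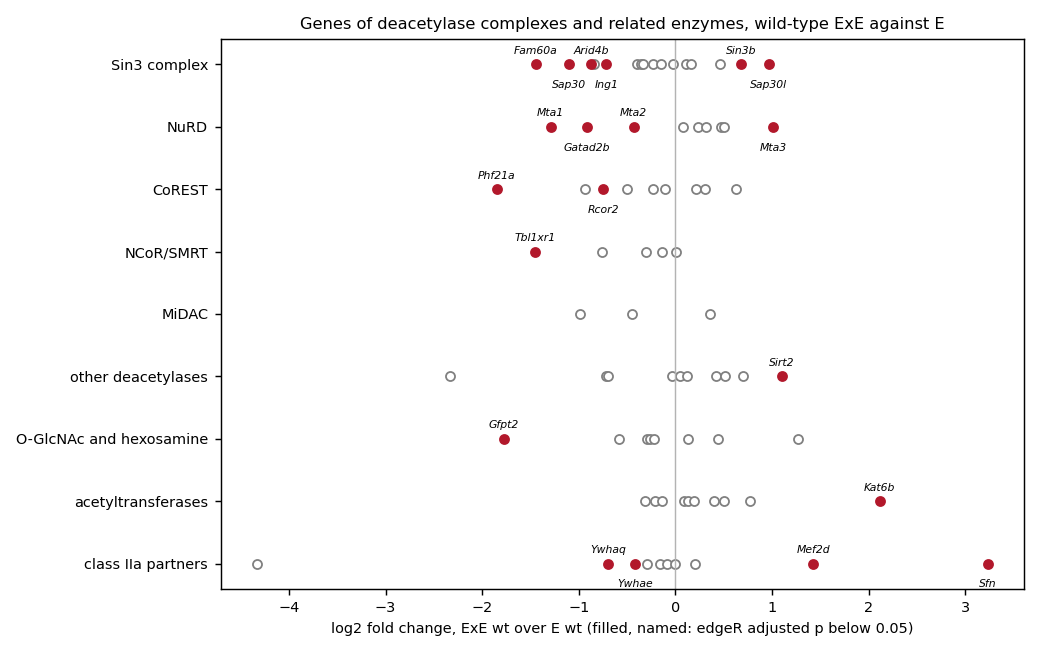
Log2 fold changes of ExE wt over E wt for the tested genes of 9 lists of complexes and enzymes related to the members, 1 point per gene. Filled points with names passed an edgeR adjusted p of 0.05, and in the Sin3 and NuRD lists they lie on both sides of 0. Arid4b, Sap30l, Sin3b, Gatad2b and Mef2d were named after their values were seen.

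The genotype comparisons ask whether the gene trap in Tet1 changed the RNA of its partners. None of the 10 members passed in ZZ or Zwt against wt, or in ZZ against Zwt, in ExE or in E (edgeR, 0 of 10 in each of the 6 comparisons). Over all genes tested the share called was 0% in the 3 ExE comparisons and in Zwt against wt and ZZ against Zwt in E, and 0.0161% in ZZ against wt in E. The members had no unadjusted p under 0.05 either, the lowest being 0.0641 for Hdac4 in E Zwt. DESeq2 and limma-voom called 0 members as well, while over all genes DESeq2 called 16 in ExE ZZ and 17 in E ZZ, and edgeR had 935 and 520 at an unadjusted p under 0.05. The difference of the ZZ effect between ExE and E was tested as an interaction and called 0 members (edgeR adjusted p of 0.9999 for each of the 10) and 0% of all genes.

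In ZZ against wt the edgeR log2 fold change was below 0 for 9 of 10 members in ExE (median -0.22, all genes -0.02). In E it was below 0 for 9 of 10 as well (median -0.18, all genes 0.01). Several of these signs were unstable: that of Hdac4 in ExE changed in 5 of 18 alternatives and that of Ogt in E in 5 of 19. Hdac1, Hdac3 and Sin3a stayed below 0 under every alternative in both tissues. In Zwt against wt the log2 fold change was below 0 for 5 of 10 members in ExE and 6 of 10 in E. A shared direction of the members was not tested. No library group was separated from wt: for every member the pools of ZZ overlapped those of wt in both tissues, where 5.88% of all genes in ExE (3.07% higher, 2.81% lower) and 4.43% in E (2.36% higher, 2.06% lower) did not overlap. Zwt pools overlapped wt pools for all 10 members too (3.84% of genes apart in ExE, 2.88% in E). In ZZ against Zwt the pools of 1 member were apart, Hdac6 in E, at 84.9 to 105 CPM in ZZ and 105 to 121 CPM in Zwt, ranges that end and begin within 1 CPM of each other (1.85% of genes apart in E, 6.00% in ExE). The log2 fold change of Hdac6 there was -0.19 ± 0.15 (edgeR adjusted p = 0.99997). Visceral endoderm markers summed to 37.3 to 496 CPM in E ZZ, 16.7 to 37.8 CPM in E Zwt and 64.6 to 1004 CPM in E wt, and with their level as a covariate 0 members passed.

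Sin3a had the lowest adjusted p of any member over these comparisons. Its level was 82.7 ± 17.9 CPM in ExE ZZ (SD, n = 3), 84.4 ± 10.5 CPM in ExE Zwt and 104 ± 22.98 CPM in ExE wt, and 167 ± 42.1 CPM in E ZZ, 180 ± 48.7 CPM in E Zwt and 223 ± 30.0 CPM in E wt (SD, n = 4 each). The log2 fold change over wt was -0.33 ± 0.23 in ExE ZZ (edgeR adjusted p = 0.821), -0.28 ± 0.22 in ExE Zwt (0.9998), -0.41 ± 0.24 in E ZZ (0.961) and -0.31 ± 0.24 in E Zwt (0.982). ZZ and Zwt were set against the same wt libraries, so that these values are not independent of each other. The lowest Sin3a library of each of the 3 groups that hold a steep library was the steep one.

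Hdac4 had the lowest unadjusted p and was at -0.06 ± 0.36 in ExE ZZ, -0.64 ± 0.34 in ExE Zwt, -0.57 ± 0.29 in E ZZ and -0.57 ± 0.29 in E Zwt (log2 fold change over wt). Its pools were at 21.5, 20.3, 23.8 and 21.4 CPM in E ZZ, at 19.2, 28.2, 13.7 and 25.3 CPM in E Zwt and at 27.9, 48.6, 21.3 and 31.5 CPM in E wt. The E wt mean of 32.3 CPM rested in part on pool 2, the highest of the 23 libraries for Hdac4, and the groups overlapped. For Ogt the values over wt were -0.22 ± 0.33 in ExE ZZ, 0.18 ± 0.30 in ExE Zwt, -0.09 ± 0.28 in E ZZ and -0.23 ± 0.28 in E Zwt. Without the steep ExE ZZ library the first of these was 0.13 ± 0.20 (edgeR adjusted p = 0.907). Hdac6 was at -0.21 ± 0.18, 0.10 ± 0.17, -0.13 ± 0.15 and 0.06 ± 0.15 in the same order. Hdac1 was at -0.23 ± 0.17 in ExE ZZ and -0.12 ± 0.14 in E ZZ, and Hdac3 at -0.15 ± 0.18 and -0.19 ± 0.16.

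For the rest the log2 fold changes of ZZ over wt were 0.07 ± 0.24 for Hdac2, -0.15 ± 0.28 for Hdac5, -0.26 ± 0.63 for Hdac7 and -0.22 ± 0.60 for Hdac8 in ExE. In E they were -0.19 ± 0.26 for Hdac2, 0.20 ± 0.25 for Hdac5, -0.44 ± 0.41 for Hdac7 and -0.17 ± 0.42 for Hdac8. For Hdac7 and Hdac8 the errors are so wide that large differences would not pass. No gene of the lists of complexes and related enzymes passed in any genotype comparison either, Tet1 included.

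**Figure D5:**
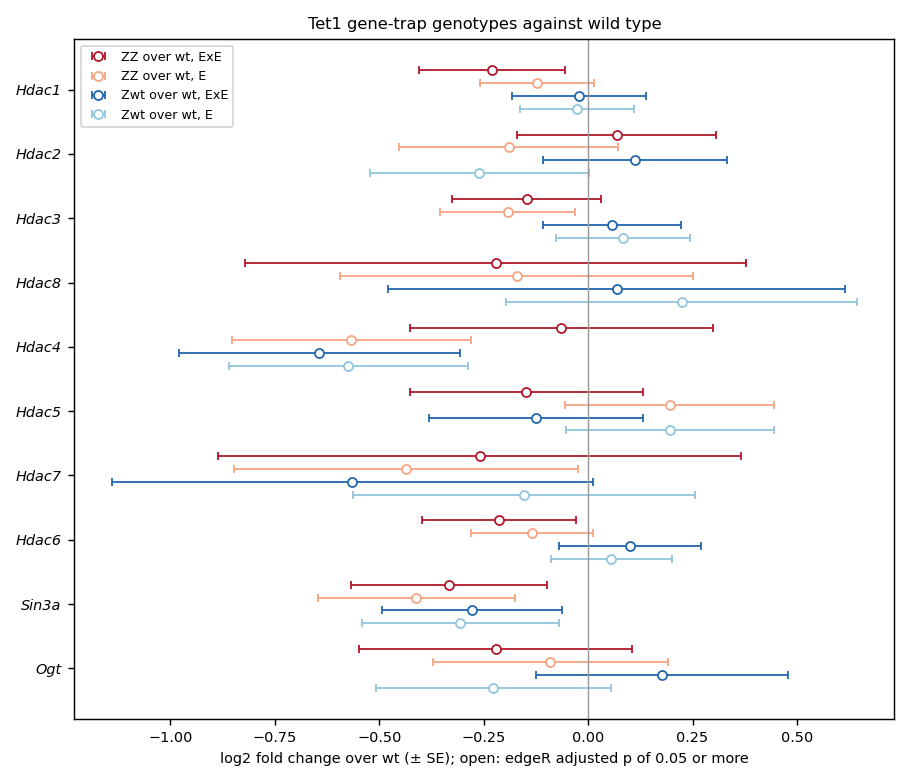
Log2 fold changes over wt for the 10 genes in ZZ and Zwt, in ExE and E, with bars of ± SE. All points are open, since 0 members passed an edgeR adjusted p of 0.05; most ZZ points lie left of 0 and the widest bars belong to Hdac7 and Hdac8.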

How the data were processed

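RNA was amplified with a low-input poly(A) kit and sequenced as single 75-base reads, per the labels' protocols. The authors deposited raw counts per gene for all 23 libraries, whole numbers that were not normalised. The submitters' processing notes list the genome build mm10 (GRCm38) and, without roles or settings, cutadapt 1.7.1 and TopHat2 2.0.12. The sources used here do not give the counting program, its annotation or its strand setting. Of 23723 symbols, 98.5% were matched to GENCODE M21 for position, length and GC content, and 27 symbols had been altered into dates.

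Counts were tested with edgeR 4.0.16 (R 4.3.3): filterByExpr with a minimum count of 10 and minimum total of 15, TMM scaling, and a two-sided quasi-likelihood test with Benjamini-Hochberg adjustment over all genes tested (threshold 0.05). The 3 genotypes of a tissue entered 1 fit (12355 genes in ExE, 12405 in E), and the tissue comparisons and the interaction came from a fit of all 23 libraries (13595 genes). SE is the log2 fold change divided by the square root of the F statistic. Levels are counts scaled by TMM to CPM, and CPM per kb uses the union of exons.

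Pools are the replicates, so p-values weigh a difference against the spread between pools, estimated over all groups of a fit. The main test did not pair pools of the same litters. Counts of all 33 pairs of libraries within a group differed by more than counting noise (chi-square divided by its degrees of freedom, 12.3 to 118). Depth bears on counting error and not on the spread between pools, and the amplified reads carried no molecular identifiers. The labels say that equal numbers mark E and ExE pools of the same litters for 3 of 4 pools, and all pairs of equal number were used for the block, among them 1 wt pair without stated shared litters. Deviations of 10 such pairs correlated at -0.04 to 0.46 (median 0.07). The highest value was that of ZZ pool 3, where both libraries have steep length slopes, and the next was 0.24 in ZZ pool 4. Numbers shared between genotypes have no such statement, and 16 pairs of them correlated at -0.35 to 0.20.

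Alternatives were DESeq2 1.42.0, limma-voom 3.58.1, RLE scaling, no filter, the replicate block, offsets for GC content and length, both together, leaving out the 3 libraries with steep length slopes, Y-linked or visceral endoderm levels as covariates, other sets of libraries, and each library left out in turn. The longest transcript as length was chosen after seeing the data. The members and the lists were chosen with earlier results of these data known. Named genes are the 10 members, Tet1, up to 3 genes of smallest p per list in wt ExE against E, and for each member the 3 genes of highest Pearson r in log2 CPM over the 23 libraries among tested genes with a mean of at least 3.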

Additional observations from a re-analysis of the deposited data

Results flagged for a closer look

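Hdac2, a class I deacetylase, stood apart in 2 libraries. In E ZZ pool 3 it was at 157 CPM, against 342, 315 and 342 CPM in the other E ZZ pools, a gap of 0.856 of the range of the group. In E Zwt pool 4 it was at 164 CPM, against 318, 321 and 302 CPM in the other E Zwt pools, a gap of 0.877 of the range. Both gaps are above the critical value for 4 libraries. Of 50 groups of a member and its libraries that were examined, 2 were picked out, and chance alone picks about 1 in 20. Both libraries are among the 3 with steep length slopes, and the part of the length and GC bias in the low Hdac2 was not tested.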

How the results depend on the processing

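Over the 100 tests of members there were 1940 alternative values. Of these, 1894 kept their side of the threshold, 7 lost a call, 39 gained one and 0 changed sign in a called test. The 1894 include 148 values that changed sign while uncalled. The 6 genotype comparisons and the interaction had 0 members called under every alternative, with a lowest adjusted p of 0.529. Hdac6 was called in ExE against E in every genotype under all alternatives run.

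In ZZ the count of members called in ExE against E was 4 with the replicate block (20.9% of all genes called), 5 with GC and length offsets (21.6%), 5 with both (21.4%), 4 without the 3 steep libraries (2788 of 13961 genes) and 1 when only ZZ libraries were fitted (8.19%), against 2 (16.8%). In Zwt it was 6 with the replicate block (30.6%), 5 with offsets (33.6%), 6 with both (31.9%) and 6 without the 3 steep libraries (35.6%), against 3 (27.0%). In wt it was 5 with offsets (22.7%), 5 with the replicate block and offsets (26.5%) and 5 without the 3 steep libraries (26.3%), against 3 (17.3%); the block alone gave 4 (25.8%). Set against the main edgeR test, the share of all genes moved the same way as the members' count in each of these settings. That did not hold in every setting. With RLE scaling in ZZ, 3 members were called and the share of all genes was 16.5%. Nor did the members' count follow the share from 1 setting to another. In Zwt, offsets gave 5 members at 33.6% and the block 6 at 30.6%. In wt, offsets gave 5 at 22.7% and the block 4 at 25.8%. The cause of these shifts was not tested. Leaving out 1 library gave 2 to 3 members in ZZ, 3 to 4 in Zwt and 2 to 3 in wt. The share of all genes called was then 9.30% to 20.2% in ZZ, 22.1% to 28.8% in Zwt and 11.1% to 18.6% in wt. Without ExE ZZ pool 3 the count in ZZ was 3 and the share 15.0%. Without ExE Zwt pool 1 the count in Zwt was 4 and the share 22.9%. The block changed the calls of no other comparison.

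Tet1 in ZZ was at 47.0% of wt in E and 29.0% in ExE, and with 1 library left out at 40.9% to 52.0% in E and 23.8% to 32.3% in ExE. The exact permutation p was 0.0286 without any 1 E wt library and 0.0571 without any 1 E ZZ library, which missed 0.05. It was 0.1 without an ExE wt library and 0.0667 without an ExE ZZ library. In ExE those numbers of libraries allow no p under 0.05. Low counts limit Hdac7 and Hdac8, and no alternative was left unrun.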

Other observations

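Across the 23 libraries, the genes whose log2 CPM followed Hdac6 most closely were Fbxo21 (Pearson r = 0.978), Clstn1 (0.971) and Gga2 (0.969), among 8869 genes compared. For Sin3a they were Ptbp2 (0.961), Myo5a (0.954) and Smarcc1 (0.952), for Ogt Scd1 (0.953), Alg13 (0.947) and Anln (0.947), and for Hdac2 Dek (0.962), Fubp1 (0.955) and G2e3 (0.953). Hdac1 was most like Gclc (0.886), Klhdc2 (0.882) and Srl (0.879). For the other members the highest r was lower. Hdac3 was most like Tmem19 (0.591), Pgap2 (0.567) and Slc27a1 (0.559), and Hdac4 most like Atl3 (0.738), Ift122 (0.689) and Sfmbt1 (0.672). Hdac5 was most like Gpc1 (0.792), Tkt (0.789) and Pld6 (0.762), Hdac8 most like Hip1 (0.790), Wasf1 (0.786) and Add3 (0.784), and Hdac7 most like Nfatc2ip (0.778), Per3 (0.766) and Mxra8 (0.764). The libraries share 2 tissues, so a gene that differs between them resembles every other such gene, and these values are a description.

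Within tissues, after the tissue means were removed, Hdac2 and Ogt followed each other with r = 0.82 over 23 libraries, Hdac2 and Sin3a with 0.72 and Sin3a and Ogt with 0.63, while Hdac2 and Hdac5 were opposed (-0.68). Over all 45 pairs of members the median was 0.03. Without the 3 libraries with steep length slopes the 20 remaining libraries gave 0.54 for Hdac2 and Ogt, 0.08 for Hdac2 and Sin3a, -0.04 for Sin3a and Ogt and -0.56 for Hdac2 and Hdac5. The relations of Sin3a with Hdac2 and with Ogt thus rested on those 3 libraries.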
